A study of Homo sapiens with 6 samples.

Results

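The genes described here encode proteins of the muscle thin filament, namely the sarcomeric actins ACTA1 and ACTC1, the troponin T genes TNNT1, TNNT2 and TNNT3, the troponin I genes TNNI1 and TNNI2, the troponin C genes TNNC1 and TNNC2, and the tropomyosin gene TPM2. They were chosen by symbol, and all 10 were found among the 35268 named genes of the expression table. The RNA came from Rh30, a patient-derived cell line of fusion-positive rhabdomyosarcoma (FP-RMS), a childhood tumor of cells arrested in myogenic differentiation and driven by the PAX3-FOXO1 oncofusion, which both treatment groups carried. In 3 samples the cells had received 1 µM YK-4-279, a small molecule that interferes with protein interactions of ETS transcription factors, dissolved in DMSO, and in 3 samples vehicle (DMSO) alone, each for 24 hours. The comparison asks how drug treatment changed gene expression in FP-RMS cells. The sources used here call the samples triplicates without saying whether they were separate cultures, so the p-values measure the spread between these samples, which may be partly technical. All of them came from 1 cell line, at 1 dose and 1 time.

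Muscle contracts when myosin heads of the thick filament pull on the actin of the thin filament. Tropomyosin lies along the actin and covers the sites that myosin needs, and the troponin complex sets its position. In that complex troponin C binds calcium, troponin I holds the filament in the inhibited state, and troponin T ties the complex to tropomyosin, with a single copy of each subunit per complex. Troponin T and troponin I have separate genes for slow, fast and cardiac muscle, whereas slow and cardiac muscle share their troponin C gene. Developing skeletal muscle uses ACTC1 and TNNT2, later known as cardiac genes, before ACTA1 and the adult troponins take over. These genes are textbook readouts of how far a muscle cell has differentiated.

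Expression was deposited as normalized counts, that is, reads per gene multiplied by a factor of the library, and dividing by that factor returned whole reads for 100% of the values. The libraries held 16724650 to 24677433 reads on named genes. DMSO replicate 1 had the fewest reads and stood apart from the others. Its mean correlation with the other libraries across genes was 0.989, against at least 0.992 for each of the rest, and mitochondrial genes took 6.05% of its reads, against 4.74% to 5.03% elsewhere. Since 8 of the 10 thin filament genes had their lowest value of all 6 libraries in DMSO replicate 1, as did 28.8% of all genes tested, results that rest on it are also given without it.

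The cells were rich in ACTC1, TNNI1, TNNT1 and TPM2 mRNA in both groups, while the other 6 genes did not exceed 303 normalized counts in any library. After YK-4-279 treatment ACTC1 rose 1.29-fold and was the single member to pass the test. All 10 genes had a log2 fold change above 0, ranging from 0.14 for TPM2 to 0.76 for TNNC2, whereas 48.0% of all genes tested had one. The median log2 fold change of the 10 genes was 0.34, beside -0.01 over all 13930 genes tested. The test was limma on log2(normalized count + 1) over all genes with a mean of at least 10, which each of the 10 genes reached, and a gene was called at a Benjamini-Hochberg adjusted p under 0.05. By this rule 1 of 10 members was called higher and 0 were called lower, against 1.26% of all genes called higher and 3.41% called in either direction. At an unadjusted p under 0.05, 7 of the 10 genes were higher, against 7.69% of all genes. For 5 of the 10 (ACTC1, TNNT1, TNNI1, TNNC1 and TNNC2) every treated library lay above every DMSO library, as it did for 10.9% of all genes. Without DMSO replicate 1 the median log2 fold change of the 10 genes was 0.23 (-0.01 over all genes), all 10 were still above 0, and ACTC1 and TNNT1 were called, where 4.62% of all genes were called higher. Without that library 1823 of all genes were called in either direction, 1179 of them lower. After every library was corrected for transcript length and GC content, 5 members were called (ACTC1, TNNT1, TNNT2, TNNI1 and TNNC1), all of them higher, where 4.87% of the 13705 genes in that fit were called higher.

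**Figure D1:**
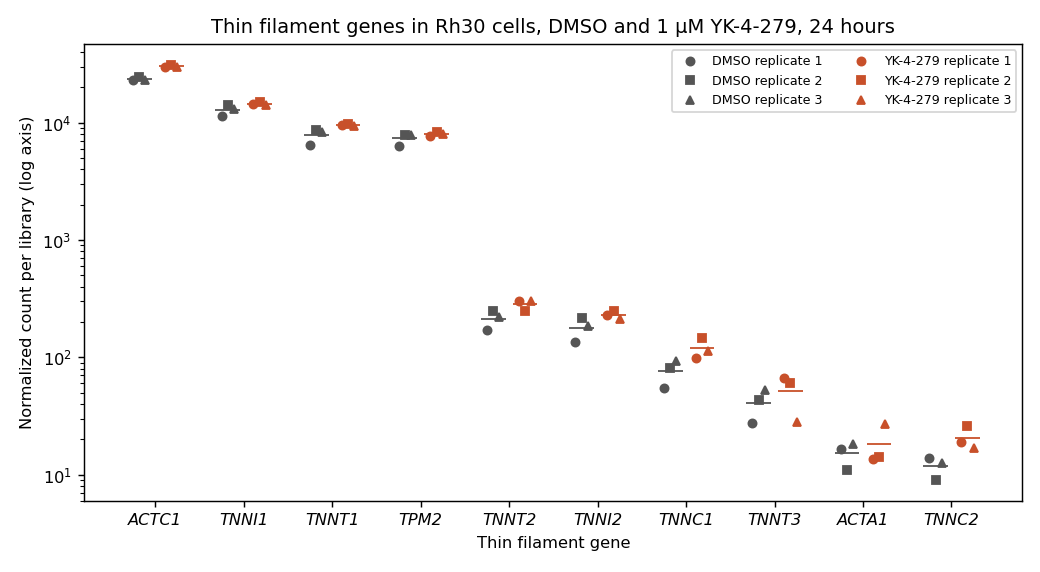
Normalized counts (log axis) of the 10 thin filament genes in each of the 3 DMSO and 3 YK-4-279 libraries, one point per library with a line at each group mean, ordered by mean. ACTC1, TNNI1, TNNT1 and TPM2 lay between 6307 and 31108 normalized counts in every library, and the other 6 genes at or below 303.

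ACTC1, the cardiac alpha-actin that also builds the first thin filaments of skeletal muscle, is at chr15:34790107-34795589 on the minus strand (hg38). Its normalized counts were 22847, 24296 and 22897 in the DMSO libraries and 29672, 31108 and 29509 in the treated ones. The lowest treated library thus lay well above the highest DMSO library, and neither group was spread widely (coefficients of variation 3.52% and 2.92%). The group means were 23347 ± 822 and 30096 ± 880 (SD, n = 3 each), with a log2 fold change of 0.37 (SE 0.05, 95% interval 0.25 to 0.48, limma adjusted p = 0.00528). Without DMSO replicate 1 it was 0.35 (adjusted p = 1.86e-08), with DMSO replicate 1 at 96.8% of the mean of the other DMSO libraries for this gene. The call was lost without YK-4-279 replicate 1 (adjusted p = 0.0580) or YK-4-279 replicate 2 (adjusted p = 0.0644), with the fold change still at 0.38 and 0.34, and without the eBayes trend (adjusted p = 0.0946). By mean normalized count ACTC1 ranked 53rd among all genes tested. An antisense neighbour, GJD2-DT, overlaps 449 bases of its exons, and since the strand setting of the counting is not given, reads of the 2 genes may have been mixed there. GJD2-DT itself had 44.6 to 63.0 normalized counts per library.

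ACTA1, the alpha-actin of adult skeletal muscle, is at chr1:229430365-229434104 on the minus strand and was close to the lower limit of what these libraries can measure. It had 13, 11 and 22 reads in the DMSO libraries and 16, 13 and 27 in the treated ones, or 16.4, 10.99, 18.4, 13.7, 14.1 and 27.0 normalized counts. The groups overlapped, and the highest value, in YK-4-279 replicate 3, set the direction. The log2 fold change was 0.21 (SE 0.35, 95% interval -0.55 to 0.97, limma adjusted p = 0.795) and -0.09 without that library. The coding sequences of ACTA1 and ACTC1 are 85.7% identical over 1131 bases, but neither gene's transcript shares a stretch of 150 bases, the read length, with that of another annotated gene. Of the 50-base stretches of ACTA1, 1.87% are also in ACTB or other annotated genes, and ACTB had 36756 to 54764 reads per library. Whether shorter, trimmed reads were mixed there was not tested. A long noncoding RNA on the opposite strand overlaps 396 bases of the ACTA1 exons.

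The stretches upstream of ACTC1, ACTA1 and TNNT1 are shown because they hold the CArG boxes and TATA elements found among the members, in an abundant actin whose mRNA rose, a scarce actin and an abundant troponin. They run from 150 to 20 bases before the RefSeq start site (GRCh38.p14, minus strand), with the CArG box, to which serum response factor binds in muscle gene promoters, and the TATA element TATAAA in capitals.
ACTC1, chr15:34795569-34795699: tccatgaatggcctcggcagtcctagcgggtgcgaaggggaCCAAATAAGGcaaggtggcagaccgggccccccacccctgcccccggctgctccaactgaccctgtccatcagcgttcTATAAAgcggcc
ACTA1, chr1:229434114-229434244: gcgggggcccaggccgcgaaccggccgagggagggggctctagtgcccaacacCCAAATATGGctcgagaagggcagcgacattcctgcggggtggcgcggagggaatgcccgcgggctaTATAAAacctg
TNNT1, chr19:55149226-55149356: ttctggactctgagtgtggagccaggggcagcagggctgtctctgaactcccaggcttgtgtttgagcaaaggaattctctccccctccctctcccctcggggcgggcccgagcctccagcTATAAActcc

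RefSeq windows of 300 bases, from 250 before to 50 after a start site, were in hand for 5 members (ACTA1, ACTC1, TNNT1, TNNT2 and TPM2), which have 8 such windows. Both strands were searched. The CArG box was in 2 of the 8, beginning 109 bases before the start of ACTC1 and 97 before that of ACTA1, and in 1.29% of the 35116 windows of all genes. TATAAA was found 31, 30 and 29 bases before the starts of ACTC1, ACTA1 and TNNT1, and in 11.5% of all windows. The E-box CANNTG, to which MYOD1 and its relatives bind, was in windows of each of the 5 genes and in 68.7% of all windows, and CATTCC, the TEAD element, was in windows of ACTA1, ACTC1 and TNNT2 and in 14.0% of all. The MEF2 motif (0.572% of all windows) and CCGGAA, the core bound by ETS factors (17.2%), were in none of the 8. No match overlapped another. The 2 actin windows with a CArG box thus belong to the most abundant member and to one of the scarcest.

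Among the troponin T genes, TNNT1, the slow skeletal form, was by far the most abundant. The gene (chr19:55132698-55149206, minus strand) had 6424, 8636 and 8268 normalized counts in the DMSO libraries and 9492, 9809 and 9414 in the treated ones. DMSO replicate 1 was low, at 76.0% of the mean of the other DMSO libraries, but the groups did not overlap with or without it. Means were 7776 ± 1185 and 9572 ± 209 (SD, n = 3 each), and the log2 fold change of 0.31 (SE 0.09, 95% interval 0.12 to 0.50) did not pass the adjustment (limma adjusted p = 0.0733). Without DMSO replicate 1 the fold change fell to 0.18 while its error narrowed (SE 0.04, adjusted p = 9.11e-04). It also passed without DMSO replicate 2 (adjusted p = 0.0164).

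TNNT2, the troponin T of heart and of embryonic skeletal muscle (chr1:201359008-201377764, minus strand), had 170, 248 and 220 normalized counts with DMSO and 300, 248 and 303 with YK-4-279. YK-4-279 replicate 2 and DMSO replicate 2 were level, so the groups touched, and the log2 fold change was 0.42 (SE 0.14, limma adjusted p = 0.114). It was 0.27 without DMSO replicate 1 (adjusted p = 0.0826) and 0.54 without DMSO replicate 2 (adjusted p = 0.0359). Its values are uncertain, because 68.6% of the 150-base stretches of its transcript also lie in an annotated long noncoding RNA on the same strand. TNNT3, the fast skeletal form (chr11:1919703-1938706, plus strand), was far lower, at 27.7, 43.0 and 52.6 normalized counts with DMSO and 66.0, 60.9 and 28.0 with YK-4-279. One treated library was as low as the lowest DMSO library, and the fold change was within its error (log2 0.28, SE 0.32, limma adjusted p = 0.676). It was 0.02 without DMSO replicate 1 and 0.66 without YK-4-279 replicate 3.

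Of the troponin I genes, TNNI1 encodes the slow skeletal inhibitory subunit, which is also the form of developing muscle, and TNNI2 the fast one. TNNI1 (chr1:201403784-201429866, minus strand) had 11396, 14154 and 12961 normalized counts with DMSO and 14378, 15064 and 14173 with YK-4-279. The groups did not overlap, but the lowest treated library was only just above DMSO replicate 2. The log2 fold change was 0.18 (SE 0.07, 95% interval 0.03 to 0.34, limma adjusted p = 0.188). It was 0.10 without DMSO replicate 1 and 0.26 without DMSO replicate 2, where it was called (adjusted p = 0.0453). A processed pseudogene on the opposite strand overlaps 300 bases of the TNNI1 exons. TNNI2 (chr11:1838981-1841680, plus strand) had 134, 216 and 185 normalized counts with DMSO and 229, 246 and 210 with YK-4-279. Here DMSO replicate 2 lay above the lowest treated library, and the log2 fold change of 0.38 (SE 0.15, limma adjusted p = 0.208) was 0.19 without DMSO replicate 1.

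The troponin C genes had the highest fold changes of the 10 and were also the most thinly read of the subunits. TNNC1, the calcium sensor of slow and cardiac muscle (chr3:52451100-52454041, minus strand), had 54.2, 80.9 and 92.7 normalized counts with DMSO and 99.4, 146 and 113 with YK-4-279. Every treated library was above every DMSO library, by a narrow margin between the nearest 2. The log2 fold change was 0.66 (SE 0.20, 95% interval 0.22 to 1.10, limma adjusted p = 0.0933), and 0.44 without DMSO replicate 1 (adjusted p = 0.0691). TNNC2, the fast form (chr20:45823214-45833745, minus strand), was read 11, 9 and 15 times with DMSO and 22, 24 and 17 times with YK-4-279. Its normalized counts were 13.9, 8.99 and 12.5 against 18.9, 26.1 and 17.01. The groups did not overlap, but the 95% Poisson interval of the 9 reads alone, which covers counting error only, ran from 4.12 to 17.1 reads, and the log2 fold change of 0.76 had an SE of 0.33 (limma adjusted p = 0.236). It was 0.87 without DMSO replicate 1, where this gene, unlike most of the others, was not low.

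TPM2, the beta-tropomyosin of slow and embryonic skeletal muscle (chr9:35681992-35690056, minus strand), had the smallest fold change of the 10 with all 6 libraries and the deposited scaling. With quantile normalization ACTA1 (0.01) and TNNT3 (0.16) were below TPM2 (0.21). The gene had 6307, 7865 and 7786 normalized counts with DMSO and 7750, 8337 and 7982 with YK-4-279. DMSO replicates 2 and 3 lay within the range of the treated libraries, and only DMSO replicate 1 was low. The log2 fold change was 0.14 (SE 0.08, 95% interval -0.03 to 0.31, limma adjusted p = 0.360), and 0.04 (95% interval -0.05 to 0.12) without that library.

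**Figure D2:**
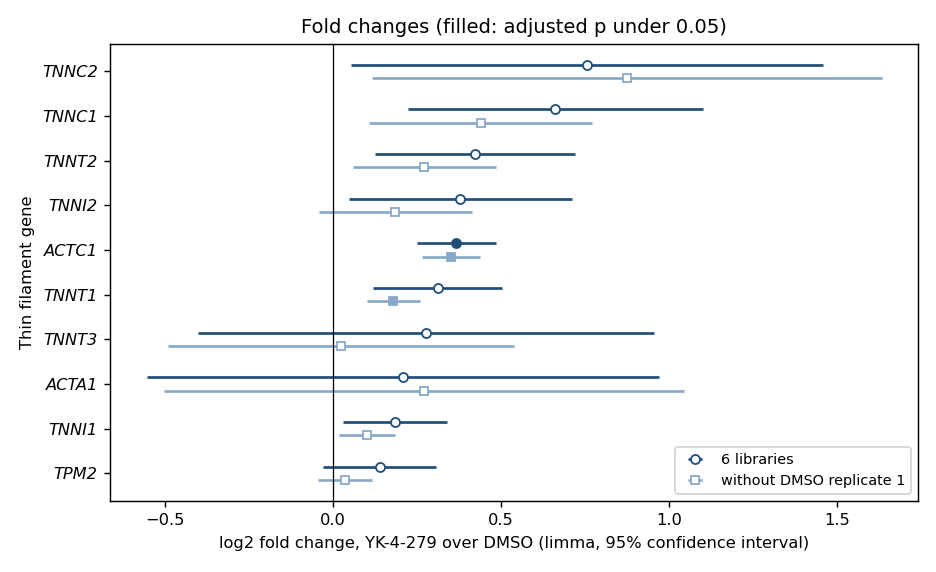
Log2 fold change of each thin filament gene, YK-4-279 over DMSO, with its 95% confidence interval from limma, from all 6 libraries (circles) and without DMSO replicate 1 (squares), filled where the adjusted p was under 0.05. ACTC1 is filled in both, TNNT1 only without DMSO replicate 1, and the intervals widen toward the thinly read genes, to -0.55 to 0.97 for ACTA1.

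**Figure D3:**
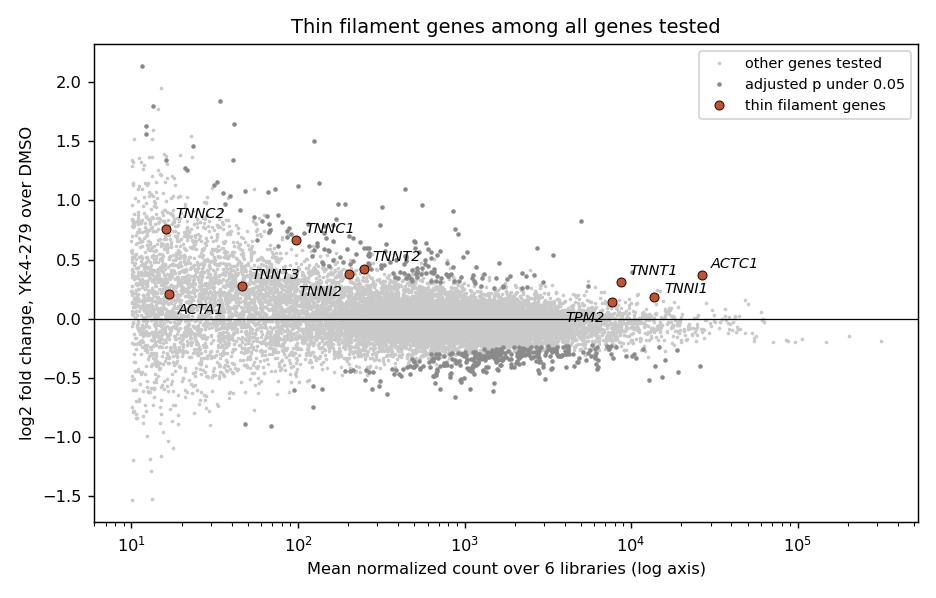
Log2 fold change, YK-4-279 over DMSO, against mean normalized count (log axis) for the 13930 genes tested, with genes called at an adjusted p under 0.05 in darker grey and the 10 thin filament genes in orange. All 10 lie above 0. ACTC1 has a fold change of 0.37 and ranks 53rd by count.

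Levels of different genes can be compared only per length, so normalized counts were also divided by the length of the GENCODE canonical transcript. On this scale the order in DMSO cells was ACTC1 (16894 ± 595 per kilobase), TNNT1 (6999 ± 1066), TPM2 (6151 ± 737), TNNI1 (2101 ± 226), TNNI2 (237 ± 55.3), TNNT2 (183 ± 33.8), TNNC1 (111 ± 28.7), TNNT3 (38.6 ± 11.8), TNNC2 (17.3 ± 3.70) and ACTA1 (10.2 ± 2.56; SD, n = 3 for each). TNNT1 and TPM2 overlapped between libraries, as did TNNI2 and TNNT2, and the other neighbours did not. The order was the same with YK-4-279, where TNNT3 and TNNC2 overlapped. TNNI1 has a canonical transcript of 6110 bases of which 561 are coding. Per kilobase of coding sequence TNNI1 was at 22882 in DMSO cells, above ACTC1 at 20643, and with YK-4-279 it was at 25916, below ACTC1 at 26610.

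The 3 troponin subunits were not equally represented. Summed over its genes, troponin T was at 5955, 8026 and 7680 normalized counts per kilobase of transcript in the DMSO libraries and at 8863, 9099 and 8760 in the treated ones. Troponin I was at 2043, 2604 and 2368, then 2658, 2793 and 2599. Troponin C was at 99.3, 131 and 153, then 172, 250 and 190. Troponin C was therefore the scarce subunit in each of the 6 libraries, with troponin T at 57.1 ± 6.10 times its level in DMSO cells and 44.7 ± 7.65 times with YK-4-279 (SD, n = 3 each). Per kilobase of coding sequence these values were 53.5 ± 5.72 and 41.8 ± 7.16. Per kilobase of transcript the ratio of troponin T to troponin C ran from 50.1 to 61.3 over the DMSO libraries and from 36.4 to 51.4 over the treated ones, so the groups overlapped. The ratio of troponin I to troponin C per kilobase of transcript was 20.6, 19.9 and 15.45 in the DMSO libraries and 15.42, 11.2 and 13.7 in the treated ones, where the nearest libraries of the groups were almost level but did not overlap. Per kilobase of coding sequence troponin I rather than troponin T was the most abundant subunit, at 23209 ± 2542 against 9615 ± 1478 in DMSO cells, and its ratio to troponin C was 107.5 to 145.7 with DMSO and 76.7 to 106.3 with YK-4-279. The order of troponin T and troponin I thus depends on the length used, and the low place of troponin C does not. None of these ratios was tested. These are levels of mRNA, and protein was not measured in these files.

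Within each subunit the slow or embryonic gene predominated in both groups. Per kilobase of transcript, ACTC1 made up 99.94% of the sarcomeric actin mRNA in DMSO cells and 99.94% with YK-4-279. TNNT1 made up 96.9% ± 0.140 and 96.7% ± 0.319 of troponin T, and TNNC1 85.8% ± 5.55 and 85.2% ± 1.49 of troponin C (SD, n = 3 each). The share of TNNI2 in troponin I was 8.71%, 11.04% and 10.4% in the DMSO libraries and 11.5%, 11.7% and 10.8% in the treated ones. The treated libraries were mostly higher, but DMSO replicate 2 lay above YK-4-279 replicate 3, and the difference of 1.25 percentage points had an exact permutation p of 0.2 (two-sided), with 0.1 the smallest p that 3 libraries against 3 allow. Without DMSO replicate 1 the difference was 0.582 percentage points. For the 6 shares tested these p-values lay between 0.2 and 1.0, and the Benjamini-Hochberg adjusted values were at least 0.8. The length used matters for troponin I. Per kilobase of coding sequence the TNNI2 share was 1.39% ± 0.182 in DMSO cells and 1.59% ± 0.0763 with YK-4-279.

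**Figure D4:**
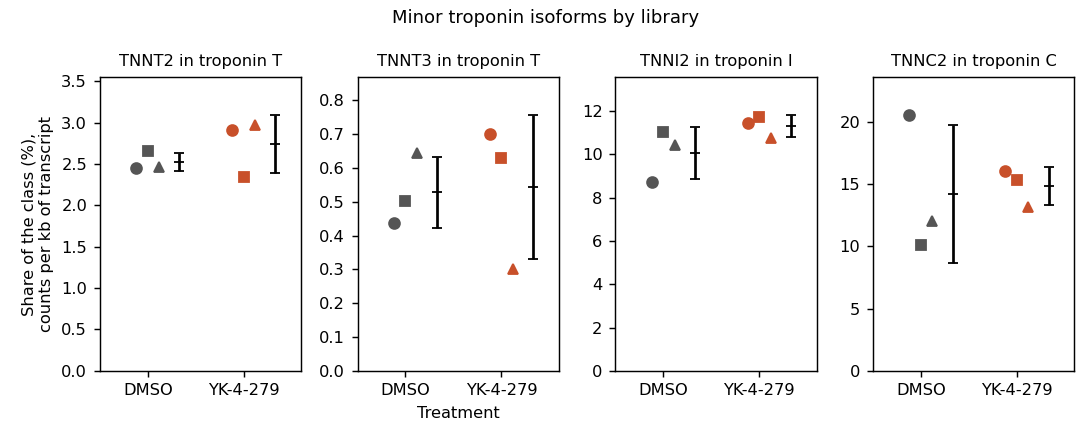
Share (%) of TNNT2 and TNNT3 in troponin T, TNNI2 in troponin I and TNNC2 in troponin C, as counts per kilobase of transcript, by library (circle, square and triangle for replicates 1, 2 and 3) with mean ± SD to the right of each group; each axis starts at 0. The groups overlap in all 4 panels, and the high TNNC2 share of 20.5% in DMSO replicate 1 rests on 11 reads.

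The fast or adult genes were also set directly against their partners, by an exact permutation test whose p cannot go below 0.1 with 3 libraries against 3. The log2 ratio of TNNI2 to TNNI1 went from -6.18 ± 0.195 to -5.99 ± 0.0708 (SD, n = 3 each), a difference of 0.19 with an exact permutation p of 0.2, which was 0.084 without DMSO replicate 1. The differences for ACTA1 to ACTC1 (-0.16), TNNT3 to TNNT1 (-0.04) and TNNC2 to TNNC1 (0.09) each had an exact permutation p of 0.9, and the adjusted p over the 4 ratios was at least 0.8. The spread was wide for the thinly read genes, with an SD of 0.412 among the DMSO libraries for the ACTA1 ratio and 0.602 for the TNNC2 ratio (n = 3 each).

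Across the libraries most of the 10 genes moved together. Pearson's r of a gene's log2 values with the mean of the other 9 members, over the 6 libraries, was 0.95 for TNNC1, 0.94 for TNNT1, 0.88 for TNNI1, 0.87 for ACTC1, 0.86 for TNNI2, 0.85 for TPM2 and 0.75 for TNNT2. It was 0.58 for TNNC2, 0.42 for TNNT3 and -0.05 for ACTA1, the 3 genes with the fewest reads. The points share their libraries, their treatment and the low values of DMSO replicate 1, and the correlations are given as a description. The same holds for the 5 genes outside the list whose values followed the mean of the 10 members most closely among 10693 genes with a mean of at least 100. They were BECN1, a component of the autophagy machinery (r = 0.997), ALDH1A2, an enzyme of retinoic acid synthesis (0.997), OLFML3 (0.995), GOLGA2, a Golgi matrix protein (0.994), and SLC45A3 (0.994). None of these 5 was itself called with all 6 libraries, while without DMSO replicate 1 GOLGA2 (limma adjusted p = 0.00717) and OLFML3 (limma adjusted p = 0.0320) were. ALDH1A2 had the largest log2 fold change among them, 0.49 (SE 0.14, limma adjusted p = 0.0830).

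**Figure D5:**
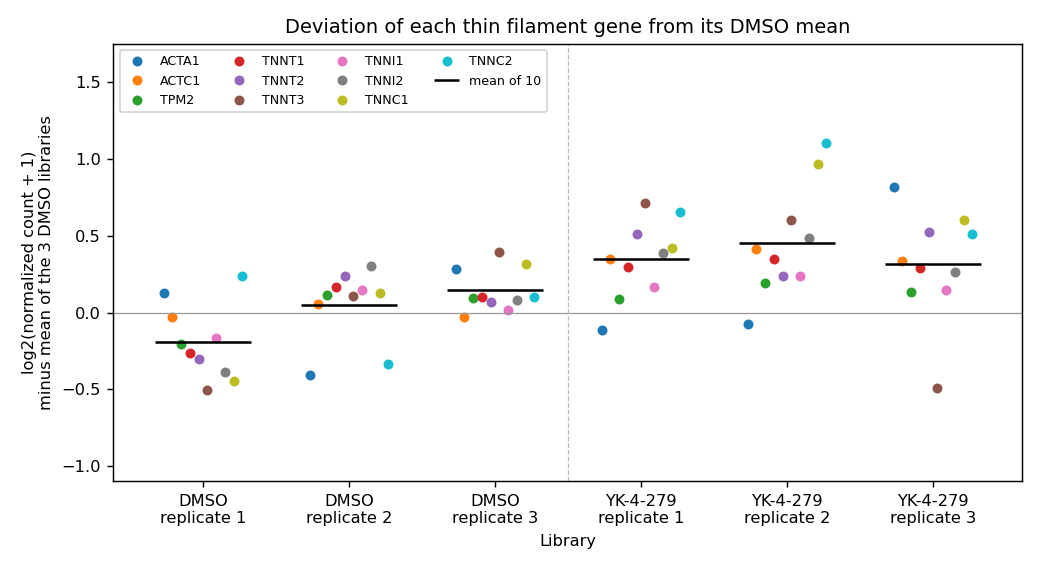
Log2(normalized count + 1) of each thin filament gene minus its mean over the 3 DMSO libraries, by library, with a black line at the mean of the 10 genes. In DMSO replicate 1, 7 genes lie below their DMSO mean by more than 0.1, and in the treated libraries all points but 3 lie above 0: ACTA1 in YK-4-279 replicates 1 and 2 and TNNT3 in YK-4-279 replicate 3.

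The troponin I and troponin T genes lie in neighbouring pairs in the genome, and neighbours differed widely in level. TNNI1 and TNNT2 are 26019 bases apart on chromosome 1, with TNNI1 at 2101 and TNNT2 at 183 normalized counts per kilobase of transcript in DMSO cells. TNNI2 and TNNT3 are 78022 bases apart on chromosome 11, at 237 and 38.6 per kilobase. TNNT1 lies 2560 bases from TNNI3, the cardiac troponin I gene, on chromosome 19. TNNI3 was at 3.88 per kilobase, from 1 to 5 reads per library, and TNNT1 at 6999, a comparison added after these values were seen.

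The mRNAs of other listed thin filament genes went in both directions. Of 20 other thin filament genes (non-sarcomeric and smooth muscle actins, other tropomyosins, nebulins, tropomodulins, leiomodins and capping proteins) 14 could be tested, 5 had fold changes above 0 and 9 below, and 0 were called by limma. Their median log2 fold change was -0.08, or -0.05 without DMSO replicate 1. At an unadjusted p under 0.05, 2 were higher, against 7.69% of all genes, and 4 were lower. On the recovered reads edgeR and DESeq2 each called 2, TPM1 and NEB, beside 465 and 635 of all genes. ACTG1, the cytoplasmic gamma-actin and the most abundant of them, was at 59032 ± 1710 and 61549 ± 2398 normalized counts (SD, n = 3 each; log2 fold change 0.06, limma adjusted p = 0.608). Without DMSO replicate 1, limma called 3 of the 14, beside 1823 of all 13930 genes, 1179 of them lower. These 3 genes are named after their values were seen. They were TPM1, the alpha-tropomyosin (0.20, limma adjusted p = 0.00199), and the filament ruler NEB (0.29), which were higher, and the capping protein CAPZA1 (-0.14), which was lower.

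KLHL41 and XIRP1, factors that build or maintain thin filaments, rose with YK-4-279. Of 12 such factors listed, 8 were tested and limma called 2, both of them higher. Without DMSO replicate 1 it called 4, beside 1823 of all 13930 genes. There were 4 higher and 0 lower at an unadjusted p under 0.05, edgeR called the same 2, and DESeq2 called 3, the other being SMYD1, named after its values were seen. The median log2 fold change over the 8 was 0.50. KLHL41, a kelch protein that keeps thin filament proteins stable, rose from 289, 184 and 213 normalized counts to 378, 421 and 372 (log2 fold change 0.79, SE 0.14, limma adjusted p = 0.0103). XIRP1, which binds actin at sites where filaments are assembled, rose from 99.6, 109 and 104 to 216, 187 and 146 (0.79, SE 0.15, limma adjusted p = 0.0122). Neither gene's groups overlapped. Both calls were lost without YK-4-279 replicate 1 (limma adjusted p = 0.0898 for KLHL41 and 0.119 for XIRP1), without YK-4-279 replicate 2 (0.0928 and 0.0976) and without the eBayes trend (0.122 and 0.103), and that of KLHL41 also without YK-4-279 replicate 3 (0.0583). CFL2, the muscle cofilin that trims actin filaments and the most abundant of the list, was at 3114 ± 407 and 2966 ± 106 (log2 fold change -0.06, limma adjusted p = 0.715).

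Other fibre-type genes were mostly low in these cells. Of 11 fast-fibre genes 7 were tested and 1 was called, and the median log2 fold change was 0.30. At an unadjusted p under 0.05, 3 were higher and 1 lower. The called gene was MYLPF, the fast regulatory myosin light chain, which rose from 85.7, 125 and 100.2 normalized counts to 153, 152 and 168 (0.62, SE 0.15, limma adjusted p = 0.0392), a call lost without DMSO replicate 3 (0.0927) or any 1 of the treated libraries (0.150 to 0.178), with quantile normalization (0.0671), without the filter on low counts (0.0516) and without the eBayes trend (0.136). MYBPC2, a myosin-binding protein and the fast gene with the highest mean over the 6 libraries, was at 796 ± 94.8 and 974 ± 26.2 (0.30, limma adjusted p = 0.0802), and was called by DESeq2 and, without DMSO replicate 1, by limma. The calcium pump ATP2A1, named after its values were seen, went the other way, at 871 ± 36.5 and 758 ± 47.5 (-0.20, limma adjusted p = 0.174), and was called lower without DMSO replicate 1 (-0.23, limma adjusted p = 0.0103). Of 12 slow and cardiac fibre genes 6 were tested and 0 were called by limma, with a median of 0.12, or 0.01 without DMSO replicate 1 (1 was higher at an unadjusted p under 0.05, and edgeR and DESeq2 called 0). ATP2A2, the slow and cardiac calcium pump, was at 10225 ± 309 and 9722 ± 142 (-0.07, limma adjusted p = 0.487). The 1 gene higher at an unadjusted p under 0.05 was the myosin gene MYH7, named after its values were seen. It rose from 17.7, 19.0 and 21.7 normalized counts to 35.1, 31.5 and 43.0, without overlap (0.87, SE 0.25, limma adjusted p = 0.0726). Without DMSO replicate 1 the fold change of MYH7 was 0.81 (limma adjusted p = 0.0525). All 6 embryonic and neonatal genes were tested and 0 were called by limma, edgeR or DESeq2, with a median of 0.18, or 0.11 without DMSO replicate 1 (3 higher and 1 lower at an unadjusted p under 0.05). Without DMSO replicate 1, limma called 1 of them, NCAM1, a cell adhesion molecule named after its values were seen, as lower (-0.13, adjusted p = 0.0322). The 3 higher genes were the myosin genes MYH3 (0.60), MYH8 (0.80) and MYL4 (0.25), named after their values were seen. Their limma adjusted p was 0.116, 0.212 and 0.208, and their groups did not overlap. Without DMSO replicate 1 their fold changes were 0.52, 0.58 and 0.11. CHRNA1, the acetylcholine receptor alpha subunit, was at 6679 ± 309 and 6574 ± 92.7 (-0.02, limma adjusted p = 0.871).

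Among 21 myogenic regulators 17 were tested and 1 was called by limma, and the median log2 fold change was 0.07. At an unadjusted p under 0.05, 6 were higher, against 7.69% of all genes, and 0 were lower. By edgeR 2 were called (ID1 and ID2), beside 465 of all 13930 genes, and by DESeq2 3 (ID1, ID2 and MEF2D), beside 635. Limma without DMSO replicate 1 called 5, beside 1823 of all genes. Of these, ID1 and MEF2D are named after their values were seen, as is MYOG, the regulator of terminal differentiation, at 13810 ± 2368 and 16043 ± 517 (0.23, limma adjusted p = 0.224, and 0.08 without DMSO replicate 1). MYOD1, the master regulator of the muscle lineage, was at 37118 ± 2368 normalized counts with DMSO and 36868 ± 1156 with YK-4-279 (-0.01, 95% interval -0.14 to 0.12, limma adjusted p = 0.963). The called gene was ID2, an inhibitor of MYOD1-type factors, which rose from 232, 210 and 214 to 416, 444 and 404 (0.94, SE 0.09, limma adjusted p = 2.8e-04).

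The label of a muscle-lineage tumor line was checked against marker lists. All 7 skeletal muscle markers were detected, with a summed level of 70720 to 83763 normalized counts in the DMSO libraries and 78264 to 81861 in the treated ones, and 0 of 7 were called by limma, edgeR or DESeq2 (3 were higher at an unadjusted p under 0.05). When DMSO replicate 1 was left out, limma called 1, the cadherin CDH15, named after its values were seen, as lower (-0.14, adjusted p = 0.0106). ACTC1, TNNT2 and TNNC1 are also heart genes. Of 8 cardiomyocyte markers 3 were tested and 0 were called by limma, 1 of them being higher and 1 lower at an unadjusted p under 0.05. DESeq2 called NKX2-5, lower, as did limma without DMSO replicate 1 (-0.36, limma adjusted p = 2.83e-05), and edgeR called 0. The higher marker was NPPB, named after its values were seen. It rose from 13.9, 51.0 and 48.4 normalized counts to 69.4, 73.9 and 70.0 (1.10, limma adjusted p = 0.123, and 0.51 without DMSO replicate 1). The median log2 fold change of the 3 tested was 0.25. MYBPC3 was at 0 in all 6 libraries, and the sum was 1121 to 1287 with DMSO and 1066 to 1145 with YK-4-279, most of it from the regulator NKX2-5 (953 ± 78.0 and 772 ± 31.4). Of 6 smooth muscle markers 4 were tested and 0 called by limma, edgeR or DESeq2 (1 was higher at an unadjusted p under 0.05), and their sum was 1726 to 1890 and 1775 to 1800, led by SMTN. Of 6 fibroblast markers 4 were tested and 1 was called, COL1A1 (0.34, limma adjusted p = 0.0375, and 0.0927 to 0.213 without DMSO replicate 3 or any 1 of the treated libraries and 0.145 without the eBayes trend). At an unadjusted p under 0.05, 2 of the 4 were higher, the other being PDGFRA, named after its values were seen (0.27, limma adjusted p = 0.250, and 0.42 with 2.79e-04 without DMSO replicate 1). Their sum went from between 1336 and 1443 to between 1593 and 1661, with no overlap. DCN had at most 1 read in a library. Of 5 endothelial markers 4 were tested and 0 called (sums 235 to 318 and 221 to 252, led by TEK), and of 4 epithelial markers 3 were tested and 0 called (sums 131 to 141 and 130 to 177, led by EPCAM), by limma, edgeR or DESeq2. At an unadjusted p under 0.05, 1 endothelial marker was lower and 0 epithelial markers differed. The part of the fibroblast markers in the results above was not tested. In RNA from whole cultures, a larger share of cells with thin filament mRNA cannot be told apart from more of that mRNA per cell.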

How the data were processed

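Poly(A) RNA from 3 DMSO and 3 YK-4-279 samples of Rh30 was sequenced from directional libraries. Per the study's methods, reads were trimmed with BBDuk, aligned to hg38 and counted per gene with STAR 2.7.9a. The annotation and strand setting of the counting are not given in the sources used here. The authors deposited normalized counts, a signal equal to whole reads multiplied by a library factor. The factor was the smallest value above 0, and values within 0.001 of a whole multiple of it were taken as whole reads. Of 35269 rows, 1 without a gene name (at most 6 reads per library) was left out.

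The treated and DMSO libraries were compared by limma 3.58.1 (R 4.3.3), two-sided, after adding a pseudocount of 1 and taking log2. The fit used lmFit and a trended eBayes, covered the 13930 genes whose mean reached 10, and was adjusted by the Benjamini-Hochberg method over all of them. Fold changes on this scale understate those of genes with few reads. Shares and ratios were tested by exact permutation over the 6 libraries. Alternatives were other pseudocounts, filters and scalings, untrended eBayes, blocking on the replicate number, dropping single libraries, edgeR 4.0.16 and DESeq2 1.42.0 on recovered reads, correction of every library for transcript length and GC content, and, added after the data were seen, lengths of coding sequence. The limma code was tested on simulated counts. Gene positions, lengths and shared stretches are from GENCODE v44.

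The members and lists were chosen with earlier results of these data known. The genes named are the 10 members, in each list the most abundant tested gene and up to 3 called genes whose mean reached 100 and whose groups did not overlap, and the 5 genes most correlated with the members' mean. Other genes, such as markers at or near 0 (DCN and MYBPC3), TNNI3 and genes called by another test, were named after their values were seen.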

Additional observations from a re-analysis of the deposited data

How the results depend on the processing

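The fold changes of ACTC1, TPM2 and all troponin genes kept their sign under each alternative that gave them a value, 15 for TNNC2, 16 for TNNT3 and TNNC1 and 17 for the rest. That of ACTA1 ranged from -0.094 (without YK-4-279 replicate 3) to 0.37 over fits without one library. The number of members called was 1 with limma on all 6 libraries, 0 without the eBayes trend, 2 with DESeq2 (ACTC1 and TNNT1, beside 635 of all genes, 239 of them higher) and 5 with the GC and length trend removed (ACTC1, TNNT1, TNNT2, TNNI1 and TNNC1), and ranged from 0 to 4 over fits without one library, where 4 (ACTC1, TNNT1, TNNT2 and TNNI1) were called without DMSO replicate 2, beside 676 of all genes, 264 of them higher, and 0 without YK-4-279 replicate 1 or 2. ACTC1 was called in 14 of 17 alternatives, with an adjusted p of 0.0946 without the trend. All genes called numbered 475, and 277 with quantile normalization, 33 without the trend and 1604 with the GC and length trend removed, and ranged from 19 (without YK-4-279 replicate 1) to 1823 (without DMSO replicate 1) over fits without one library. Genes called in the other lists numbered 5, and 1 without the trend, 8 with edgeR, 12 with DESeq2 and 22 with the GC and length trend removed, and ranged from 1 to 20 over fits without one library. The causes were not tested. Leaving out single libraries turned the sign of small differences in share, which ranged from -0.018 to 0.0029 percentage points for ACTA1, -0.064 to 0.136 for TNNT3 and -1.41 to 3.81 for TNNC2, and of log2 ratios, which ranged from -0.47 to 0.0076 for ACTA1 to ACTC1, -0.26 to 0.34 for TNNT3 to TNNT1 and -0.14 to 0.43 for TNNC2 to TNNC1.

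Same-numbered DMSO and treated libraries did not deviate together (correlations -0.10, -0.03 and -0.03). The labels do not say whether the numbers pair the samples, and values near 0 cannot exclude it. With a replicate block 1 member (ACTC1), 180 of all genes and 3 genes of the other lists were called, and MYLPF (adjusted p = 0.0675) and COL1A1 (0.0812) were not. ACTA1 and TNNC2 had at most 27 reads in a library.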
